A study of Homo sapiens with 4 samples.

Results

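The cytosolic ribosomal protein genes were selected by symbol alone: an RPL or RPS stem followed by a number, with or without a final A or X, plus *RPLP0*, *RPLP1*, *RPLP2* and *RPSA*. This gave 77 of the 33694 genes counted, of which 46 encode proteins of the large (60S) ribosomal subunit and 31 proteins of the small (40S) subunit. They were followed through a time course of TGF-β1, a cytokine that induces epithelial-mesenchymal transition (EMT), in OVCA420, an epithelial ovarian cancer cell line. Cells were left untreated (Ctrl) or held in 10 ng/mL TGF-β1 over 1, 3 or 7 days, with starts staggered so that all cells were collected together. Droplet-based 10x Genomics 3′ scRNA-seq was performed with 1 library per time point, all from the same line. Differences between time points therefore have no replicate check, and neither tests nor p-values are given.

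Each cytosolic ribosome holds about one copy of nearly every ribosomal protein, and the mRNAs of these proteins are among the most abundant in growing cells. Most of them begin with a 5′ terminal oligopyrimidine (TOP) tract, a cytosine at the first base followed by a run of C and T, through which the mTORC1 pathway and the RNA-binding protein LARP1 control their translation and storage. The summed share of these genes is often read as a measure of the growth state of a cell.

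The start windows of 6 members described below, the paralog *RPL22L1* and the translation-related gene *TPT1* are shown to make this shared feature visible. Sequences are RefSeq GRCh38.p14, 5′ to 3′ on the strand of the gene, with 15 bases on either side of the annotated start, and capitals mark the run of C and T that begins at the start. The first 3 are members that were lower after TGF-β1, the next 3 members that were higher at 3 and 7 days.
RPLP0: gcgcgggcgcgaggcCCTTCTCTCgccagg
RPSA: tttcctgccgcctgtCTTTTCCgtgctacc
RPL12: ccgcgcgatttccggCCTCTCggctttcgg
RPL28: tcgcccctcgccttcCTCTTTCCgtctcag
RPL38: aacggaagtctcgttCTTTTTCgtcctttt
RPL35A: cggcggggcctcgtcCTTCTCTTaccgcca
RPL22L1: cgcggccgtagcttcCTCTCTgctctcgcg
TPT1: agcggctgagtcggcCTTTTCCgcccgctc
These windows lie at chr12:120201097-120201126 (minus strand) for *RPLP0*, chr3:39406705-39406734 (plus) for *RPSA*, chr9:127451392-127451421 (minus) for *RPL12*, chr19:55385917-55385946 (plus) for *RPL28*, chr17:74203663-74203692 (plus) for *RPL38* and chr3:197950175-197950204 (plus) for *RPL35A*. The windows of *RPL22L1* and *TPT1* are at chr3:170870181-170870210 (minus) and chr13:45341169-45341198 (minus). Each holds the last bases of the promoter and the first bases of the 5′ UTR. A start of C followed by at least 4 bases that are each C or T, read on the strand of the gene only, was annotated for 46 of the 62 members in the table (74.2%), against 1404 of all 27305 genes in it (5.14%). The same was true of 14 of 16 translation factors and of 3 of 34 ribosome biogenesis factors. Among the 6 members shown, those that were lower and those that were higher both carry the tract. Every window shown is a match, so members with and without the tract are not compared. *RPS2*, *RPL8*, *RPL23A* and *RPL23*, also described below, were not among the 62 members. A match describes the annotated start only.

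The members lie on 21 chromosomes, with 12 of them on chromosome 19 and 4 on the X chromosome. *RPS2* (ENSG00000140988, chromosome 16, 1962058 to 1964841, minus strand), the highest member in Ctrl, and *RPL28* (ENSG00000108107, chromosome 19, 55385932 to 55403250, plus strand), the member with the highest 7-day ratio, lie in the positions that GENCODE release 44 gives for GRCh38. Ribosomal protein genes have many processed pseudogenes whose reads can be hard to place, and *RPL17*, *RPS10* and *RPL36A* each share exons with an annotated readthrough gene. The readthrough genes themselves were counted at 0 to 0.13 CPM in every library, where CPM counts the UMIs of a gene, summed over a library's cells, and scales the library's total to 1e6. Values of these 3 members are given as uncertain.

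In the order Ctrl, 1-day, 3-day and 7-day, in which values of the libraries are given throughout, 933, 937, 705 and 569 cells were retained, which held 25382817 to 32949874 UMIs per library. They are the first part, in barcode order, of the 10710 barcodes listed. Median UMIs per cell were 30270, 32393, 43553 and 43382 in Ctrl, 1-day, 3-day and 7-day, and the mitochondrially encoded share of UMIs was 8.36%, 7.62%, 6.32% and 6.40%. Of the epithelial markers *EPCAM*, *KRT7*, *KRT8*, *KRT18* and *KRT19*, all 5 were at 297 CPM or more in every library. Of 3 ovarian carcinoma markers, *WT1* was at 0, *PAX8* at no more than 0.33 CPM and *MUC16* at 2.97 CPM in Ctrl and 0.42 CPM or less afterwards, so the ovarian label rests on the name of the line and not on these genes. The immune markers *PTPRC* and *CD3E* and the endothelial markers *PECAM1* and *CLDN5* were at 0.16 CPM or less, *CD68* was at 1.53 to 6.19 CPM, and *CDH5* was at 5.37 CPM in Ctrl. A total of 62 barcodes stood in more than 1 barcode list, and 51 of the 3144 retained cells carry one of them. Without those cells the ribosomal protein share was 24.65%, 23.62%, 23.13% and 23.44%.

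The 77 genes together made up 23.1% to 24.7% of all UMIs at every time point, and their share was slightly lower in the treated libraries. It was 24.69%, 23.61%, 23.09% and 23.46%. The 95% counting intervals, which cover counting error only, reached at most 0.02 percentage points to either side. Against Ctrl the difference was -1.07, -1.59 and -1.23 percentage points, a log2 ratio of -0.064, -0.096 and -0.074. The order of the 4 libraries did not follow treatment time, since 3-day was lowest and 7-day lay between 3-day and 1-day. Large subunit genes held 14.25% of UMIs in Ctrl and 13.59%, 13.48% and 13.73% after 1, 3 and 7 days. Small subunit genes held 10.43%, 10.02%, 9.61% and 9.72%. Both subunits were therefore below Ctrl in each treated library. A share is relative to the other RNA of the cells and does not give the amount of ribosomal protein mRNA in a cell.

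Mitochondrially encoded genes are part of the same total and also took a smaller share after TGF-β1. With these genes left out of the total, the ribosomal protein share was 26.94%, 25.56%, 24.65% and 25.06%, so that the distance from Ctrl was wider. Depth per cell also differed between libraries. Among cells of 20000 to 60000 UMIs the shares were 24.75%, 23.61%, 23.09% and 23.09%. When each library was divided into 2 parts in barcode order, Ctrl gave 24.82% and 24.55%, 1-day 23.47% and 23.75%, 3-day 23.02% and 23.17%, and 7-day 23.69% and 23.23%. These parts of 1 library differed by more than the counting intervals and by less than the distance from Ctrl to any treated library.

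Single cells varied far more than the libraries did. The share per cell had a median of 24.3% in Ctrl, where it ranged from 8.39% to 35.7%, and the SD over the 933 cells was 3.60 percentage points. At 1-day the median was 23.2% (SD 3.68 over 937 cells), at 3-day 22.7% (SD 4.37 over 705 cells) and at 7-day 23.1% (SD 4.34 over 569 cells). Counting alone would give an SD of 0.21 to 0.26 percentage points at these depths. At 3-day and 7-day the lower edge of the distribution lay further from Ctrl than its upper edge. Of the percentiles over cells, the 5th was 19.1%, 18.1%, 16.8% and 16.6%, and the 95th was 30.4%, 29.3%, 30.1% and 30.5%. Cells below 15% were found in all libraries (16, 13, 15 and 15 cells), with a median of 13472 to 26950 UMIs and a mitochondrial share of 9.96% to 13.8%. They were thus shallower and richer in mitochondrial UMIs than the cells around them. Above 35% there were 1, 2, 10 and 3 cells, and the 10 at 3-day had a median of 31322 UMIs. Across the cells of a library, which are not replicates, the large and the small subunit share followed each other closely (Pearson r 0.94 in Ctrl, 0.95, 0.97 and 0.96 at 1, 3 and 7 days). Both shares have the same total UMIs below the line. The summed share had an r of 0.10 to 0.28 with log10 UMIs and of -0.26 to -0.43 with the mitochondrial share.

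**Figure D1:**
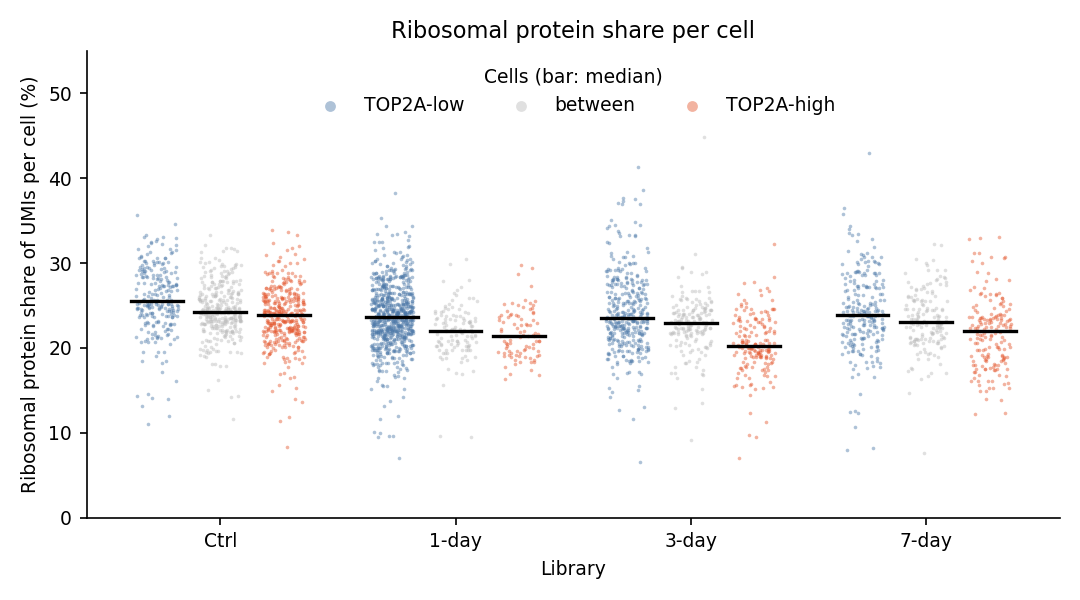
Share of UMIs on the 77 ribosomal protein genes in each retained cell (y axis, percent) by library (x axis), with 1 point per cell, colored by TOP2A class, and a black bar at the median of each class. In every library the TOP2A-high median lies below the TOP2A-low median, and the spread within a class is wider than the distance between medians.

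Measured levels differed greatly between members. In 3′ scRNA-seq each UMI stands for 1 captured mRNA molecule whatever its length, so CPM was not scaled by length. The part of the reads that is captured and placed can differ between genes, so the order of members by CPM is approximate. In Ctrl the median member stood at 2676 CPM, the lowest, *RPL17*, at 133 CPM (uncertain) and the highest, *RPS2*, at 15514 CPM. Of the 50 genes with the most UMIs, members were 35, 31, 32 and 34. The 5 members with the most UMIs in Ctrl were *RPS2*, *RPLP1* (14788 CPM), *RPS19* (6936 CPM), *RPL41* (6910.3 CPM) and *RPS6* (6907 CPM), the phosphorylation target that gave the S6 kinases their name. After TGF-β1 *RPLP1* took the first place, since *RPS2* was lower in each treated library.

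Single members differed less between libraries than other genes did. Of the 77, 76 were detected in more than 99% of the cells of each library, and all passed the minimum of 50 CPM in every comparison. A gene was counted as higher or lower when its log2 CPM ratio was at least 0.32 above or below 0, a rule of size and not a test that is called the fold limit here. At 1-day, 1 member was higher and 6 were lower, where 29.2% of the 3006 genes that passed the same minimum were higher and 30.2% lower. At 3-day, 3 members were higher and 8 lower (32.5% and 21.5% of 3080 genes), and at 7-day 3 were higher and 5 lower (32.9% and 21.4% of 3145 genes). The 7-day total of 8 was 14 within TOP2A-low cells and 5 within TOP2A-high cells, the classes defined below. The median log2 ratio over the 77 was -0.014, -0.009 and -0.039 at 1, 3 and 7 days, beside -0.017, 0.071 and 0.086 over all genes tested. The SD of the log2 ratios was 0.18 to 0.20 over the members and 0.96 to 1.09 over all genes. Other abundant genes were not as close to Ctrl, since 29.4% to 32.4% of the non-members of at least 500 CPM were lower by the fold limit. Members with an interval above 0 and below 0 numbered 37 and 37 at 1-day, 35 and 37 at 3-day, and 32 and 42 at 7-day.

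**Figure D2:**
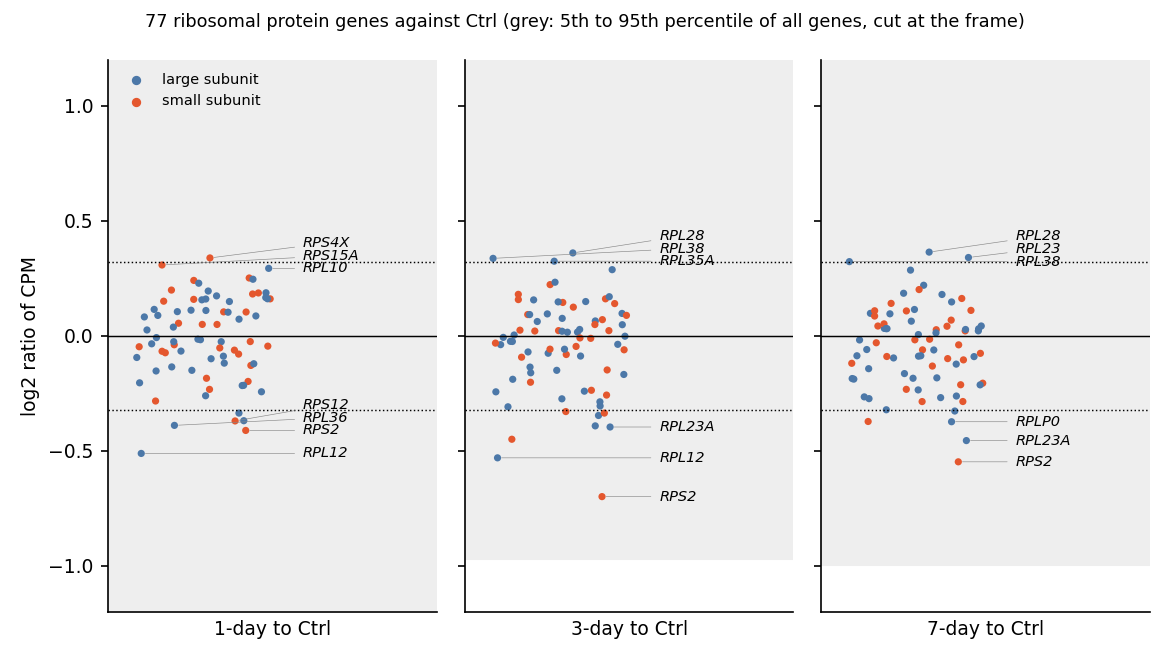
Log2 ratio of CPM to Ctrl (y axis) for each of the 77 ribosomal protein genes in the 1-day, 3-day and 7-day libraries, blue for the large and red for the small subunit. Dotted lines mark the fold limit and the grey band spans the 5th to the 95th percentile of all genes of at least 50 CPM. All points lie between -0.70 and 0.36, and *RPS2* is the lowest at 3-day and 7-day.

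A few abundant members carried much of the summed difference. *RPS2*, whose protein sits at the mRNA entry channel of the small subunit, was at 15514, 11669, 9559 and 10616 CPM in Ctrl and after 1, 3 and 7 days. Its log2 ratio to Ctrl was -0.41 at 1-day, -0.70 (counting interval -0.71 to -0.69) at 3-day and -0.55 at 7-day. It made up 19.7%, 24.8% and 24.0% of the CPM differences summed over all members below Ctrl. Without *RPS2*, a choice made after its values were seen, the share of the other 76 was 23.14% in Ctrl and 22.45%, 22.14% and 22.40% in the treated libraries. The sum was thus still below Ctrl, by less.

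The mRNAs of the proteins at the base of the large subunit stalk that recruits translation factors, and of the small subunit protein RPSA, were also lower in each treated library. *RPL12*, which encodes the protein next to the stalk base, was at 6683, 4690.4, 4629 and 5868 CPM in Ctrl and after 1, 3 and 7 days. Its log2 ratio was -0.51, -0.53 and -0.19, so that it was nearest to Ctrl at 7 days, and the ratio of 7-day to 3-day was 0.34. *RPLP0*, the base of the stalk, was at 4669.7, 3701, 3561 and 3606 CPM, a log2 ratio of -0.34, -0.39 and -0.37. Unlike *RPL12* it stayed at the lower level. *RPSA*, first known as a laminin receptor precursor, was at 3469, 2953, 2762 and 2846 CPM, a log2 ratio of -0.23, -0.33 and -0.29, of which only the 3-day value was past the fold limit. The other stalk members differed from their partner. *RPLP1* was at 14788, 12742, 12125 and 13584 CPM (log2 ratio -0.21, -0.29 and -0.12), whereas *RPLP2*, whose protein pairs with RPLP1, was at 2894, 3393, 3403 and 3026 CPM (0.23, 0.23 and 0.06). Together *RPS2*, *RPSA*, *RPLP0* and *RPL12*, grouped after their values were seen, held 3.03% of UMIs in Ctrl and 2.30%, 2.05% and 2.29% afterwards. Their summed difference from Ctrl was -7322, -9825 and -7399 CPM. That of the other 73 members was -3424, -6121 and -4914 CPM, a net sum in which rises offset falls. Over all members, falls summed to -19542, -23964 and -20393 CPM and rises to 8797, 8018 and 8080 CPM. The grouped genes were not those with the largest falls. *RPLP1*, among the other 73, fell by more CPM than *RPL12*, *RPLP0* or *RPSA* in each treated library.

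Other members were lower at the later time points. *RPL23A*, whose protein lies at the exit of the peptide tunnel, was at 4590.0, 4221, 3488 and 3349 CPM. Its log2 ratio was -0.12, -0.40 and -0.45. *RPL8*, which encodes a protein near the peptidyl transferase center, was at 4923, 4239.8, 3874 and 3926 CPM (-0.22, -0.35 and -0.33). *RPS29* was past the fold limit at 3-day alone, with -0.34 there and -0.20 and -0.21 at 1-day and 7-day. *RPS15* (-0.02, -0.26 and -0.29) and *RPL36A* (-0.02, -0.14 and -0.321, uncertain) were close to Ctrl at 1-day and lower later, without passing the fold limit.

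*RPL36*, *RPS12* and *RPL29* were lowest at 1-day. *RPL36* was at 2901, 2216, 2596 and 2966 CPM, a log2 ratio of -0.39, -0.16 and 0.03. *RPS12* was at 4681, 3624, 3974 and 4372 CPM (-0.37, -0.24 and -0.10). *RPL29* was below Ctrl throughout, at 2932, 2271, 2375 and 2447 CPM (-0.37, -0.30 and -0.26). *RPL41*, the shortest ribosomal protein, was at 6910.3, 5771, 5718 and 5873 CPM (-0.26, -0.27 and -0.23) and was past the fold limit in no library. *RPL36* and *RPS12* were thus near Ctrl at 7-day, whereas *RPL29* and *RPL41* were at similar levels in all treated libraries.

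Past the fold limit, higher members were fewer than lower ones, with 1, 3 and 3 at 1, 3 and 7 days. By sign alone, 37, 36 and 34 of the 77 members were above Ctrl in all cells, so rises were not confined to the later time points. Small rises at 1-day depended on the cells chosen. The median over members at 1-day was -0.014 in all cells, -0.082 within TOP2A-low cells and -0.091 within TOP2A-high cells. *RPL28*, a large subunit gene, was at 3067, 3461, 3940 and 3949 CPM, a log2 ratio of 0.17, 0.36 and 0.36 (counting interval at 7-day 0.35 to 0.38). *RPL38*, known from the mouse mutant tail short, was at 3466, 3248, 4379 and 4336 CPM (-0.09, 0.34 and 0.32), so it was below Ctrl at 1-day. *RPL35A*, one of the genes mutated in Diamond-Blackfan anemia, was at 2318.5, 2296, 2904 and 2827 CPM (-0.01, 0.33 and 0.29). *RPL23*, whose protein can bind MDM2, was at 2419, 2569.5, 2954 and 3065 CPM (0.09, 0.29 and 0.34). *RPL37A* was at 3770.2, 3520.0, 3813 and 4393 CPM, with a ratio of 0.22 at 7-day. Other members named for their 7-day ratio were *RPS20* (0.20), *RPL34* (0.19) and *RPL4* (0.18). All of these were above Ctrl at 7-day by more than the counting interval, and only *RPL28*, *RPL38* and *RPL23* were past the fold limit there.

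**Figure D3:**
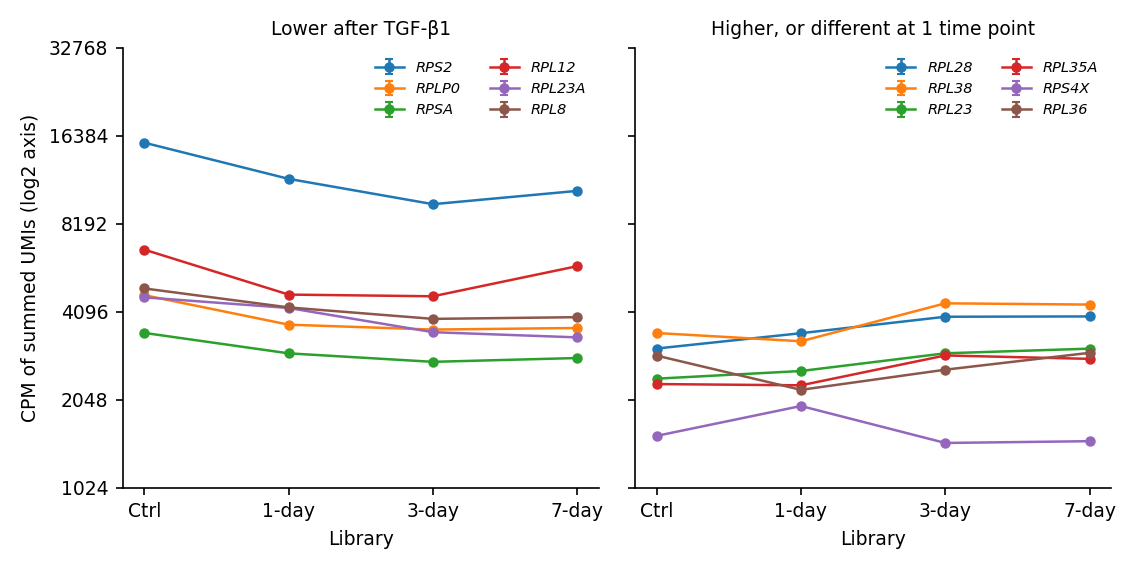
CPM of summed UMIs (y axis, log2 axis) in each of the 4 libraries (x axis) for 6 members that were lower after TGF-β1 and 6 that were higher or differed at 1 time point. Bars are 95% counting intervals, mostly smaller than the points. *RPS2* has 15514 CPM in Ctrl and 9559 CPM after 3 days, while *RPL28* and *RPL38* are at 3949 and 4336 CPM at 7-day.

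At 1-day, *RPS4X* was the only member past the fold limit upward. This X-linked gene, which has a counterpart on the Y chromosome, was at 1542, 1951, 1458 and 1479 CPM, a log2 ratio of 0.34, -0.08 and -0.06. *RPS15A* (0.31), *RPL10* (0.29), *RPS27A* (0.25) and *RPL26* (0.25) followed in order at 1-day, and their ratios at 7-day were 0.09, 0.04, 0.16 and 0.03. Of the X-linked members, *RPL10*, a late joining protein of the large subunit, was at 2275, 2789, 2273 and 2345 CPM. *RPL39* was at 3870, 4117, 3881 and 4143 CPM (0.09, 0.0041 and 0.10), and *RPL36A* (uncertain) was not higher at any time point. The makeup of the libraries by *TOP2A*, a marker of cycling cells, also differed at 1-day, as given below. Within cells low in *TOP2A* the 1-day ratio of *RPS4X* was 0.25, and within cells high in it 0.12, both under the fold limit.

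*RPL5* and *RPL11*, whose proteins form the 5S ribonucleoprotein that can inhibit MDM2, stayed close to Ctrl. *RPL5* was at 1856, 2083, 1986 and 1884 CPM (0.17, 0.10 and 0.02) and *RPL11* at 1593, 1814, 1648 and 1627 CPM (0.19, 0.05 and 0.03). The CDK inhibitor gene *CDKN1A* was at 46.4 CPM in Ctrl and 179, 170.4 and 167 CPM afterwards. *MDM2* was under the minimum of 50 CPM in every library, at 35.5, 19.7, 20.5 and 24.9 CPM. Whether these levels relate to *RPL5* and *RPL11* was not tested. Like *RPL35A*, *RPS19* and *RPS26* are mutated in Diamond-Blackfan anemia. *RPS19* had log2 ratios of -0.04, -0.06 and -0.08, and *RPS26* of -0.13, -0.15 and -0.10, where those of *RPL35A* were -0.01, 0.33 and 0.29. The genes of this disease were not followed as a set.

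Successive time points were also compared. From 1-day to 3-day, *RPL38* (0.43), *RPL35A* (0.34) and *RPS20* (0.33) were higher past the fold limit and *RPS4X* (-0.42), *RPL3* (-0.34) and *RPL10A* (-0.33) lower, where 25.8% of 2955 genes were higher and 13.2% lower. From 3-day to 7-day, *RPL12* (0.34) was the only member past the fold limit, and none was lower, where 10.6% of 3011 genes were higher and 10.6% lower. *RPS10* had the lowest ratio of this step (-0.29, uncertain). The SD of the log2 ratios over the members was 0.16 for the step from 1-day to 3-day and 0.10 for the step from 3-day to 7-day, beside 0.51 and 0.35 over all genes.

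Cells were next divided by *TOP2A*, the DNA topoisomerase of S, G2 and M phase cells, into TOP2A-high cells with 5 or more and TOP2A-low cells with fewer than 1 *TOP2A* UMI per 10000 UMIs. TOP2A-high cells numbered 375, 90, 173 and 174, and TOP2A-low cells 234, 729, 363 and 234. TOP2A-high cells as a share of each library were 40.2%, 9.61%, 24.5% and 30.6%. *MKI67*, *CCNB1*, *CDK1*, *PLK1* and *AURKA*, which mark cycling cells, were higher in TOP2A-high cells by a log2 ratio of 3.06 to 5.46. TOP2A-high cells were deeper, with a median of 32961, 42178, 51233 and 47168 UMIs in Ctrl, 1-day, 3-day and 7-day, against 28336, 32161, 40875 and 42576 UMIs in TOP2A-low cells. Cells of 1 library are not replicates, so the contrast stands 4 times side by side with no test.

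Ribosomal protein genes took a smaller share of UMIs in TOP2A-high cells in all 4 libraries. The share was 24.03% in TOP2A-high and 26.02% in TOP2A-low cells of Ctrl. At 1-day it was 21.70% and 24.10%, at 3-day 21.12% and 24.36%, and at 7-day 22.19% and 24.64%. The log2 ratio was -0.11, -0.15, -0.21 and -0.15. This difference between classes, of -1.98 to -3.24 percentage points, was wider than that between Ctrl and any treated library in all cells. The mitochondrially encoded share was 8.31% and 8.37% in the 2 classes of Ctrl and 6.69% and 6.08% in those of 3-day. Without these genes in the total, the log2 ratio was -0.12, -0.16, -0.20 and -0.14. After cells were thinned to 18000 UMIs it was -0.12, -0.13, -0.23 and -0.14, and among cells of 20000 to 60000 UMIs it was -0.13, -0.15, -0.29 and -0.19. The direction was the same in each of these settings.

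Within either class the treated libraries were again below Ctrl. In TOP2A-low cells the difference from Ctrl was -1.91, -1.66 and -1.37 percentage points at 1, 3 and 7 days, and in TOP2A-high cells -2.34, -2.91 and -1.84 percentage points. The distances within classes were therefore wider than those in all cells, where the makeup of the classes differed too.

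Nearly all members took part in the difference between classes. The log2 ratio of TOP2A-high to TOP2A-low was below 0 for 73, 74, 73 and 71 of the 77 members, and 70 members were below 0 in all 4 libraries. Over all genes tested, 41.4%, 44.1%, 43.5% and 42.1% were below 0. Of the non-members of at least 500 CPM, 58.6%, 57.9%, 55.8% and 57.9% were below 0. The intervals of 68 members lay below 0 in each library. Median ratios were -0.16, -0.19, -0.24 and -0.19. No member was higher by the fold limit in any library, where 16.2%, 24.2%, 24.4% and 29.0% of all genes were, in Ctrl, 1-day, 3-day and 7-day. Of all genes of at least 500 CPM, members included, 9.16%, 11.8%, 14.3% and 15.2% were higher. Lower by the fold limit were 0 members in Ctrl (4.92% of all genes), 5 at 1-day (11.3%), 23 at 3-day (11.0%) and 17 at 7-day (14.7%). Among non-members of at least 500 CPM (186 to 221 genes), the median was -0.06, -0.08, -0.07 and -0.07, nearer to 0 than that of the members. By the fold limit 5.38%, 14.0%, 18.4% and 25.2% of these non-members were lower, beside 0, 5, 23 and 17 of the 77 members. Members were thus past the fold limit downward less often than these non-members in Ctrl, 1-day and 7-day, and more often at 3-day. The counts at 3-day and 7-day depended on how cells were chosen: among cells of 20000 to 60000 UMIs they were 44 and 27, and with TOP2A-high from 3 UMIs per 10000 they were 14 and 16. At 1-day, with 90 TOP2A-high cells, the 2 parts of the library in barcode order gave 15 and 3.

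The members had a similar order in each library. Across the 77 genes, which are not replicates, the class ratios of Ctrl correlated with those of 1-day, 3-day and 7-day with a Pearson r of 0.83, 0.78 and 0.71, and the treated libraries with each other with an r of 0.78 to 0.89. These ratios come from different cells. In Ctrl the lowest ratios were those of *RPL19* (-0.27), *RPS26* (-0.27), *RPL26* (-0.26), *RPL6* (-0.26) and *RPS13* (-0.25). *RPS13* stayed near the lower end, with -0.36, -0.46 and -0.45 at 1, 3 and 7 days. *RPS4X* was lowest at 3-day (-0.49) and 7-day (-0.47), after -0.19 in Ctrl and -0.32 at 1-day. Its level at 3-day was 1217 CPM in TOP2A-high and 1711 CPM in TOP2A-low cells. *RPL11* was at -0.24, -0.34, -0.41 and -0.32, and *RPS27A* at -0.24, -0.31, -0.39 and -0.41.

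The 7 members that were not below 0 throughout were *RPS2*, *RPSA*, *RPLP0*, *RPL12*, *RPLP1*, *RPS20* and *RPS21*. *RPS2* was at similar levels in both classes of Ctrl (15454 CPM in TOP2A-high and 15317 CPM in TOP2A-low cells), of 1-day (11600.0 and 11684 CPM) and of 3-day (9481 and 9369 CPM). At 7-day it was at 11568 CPM in TOP2A-high and 9429.6 CPM in TOP2A-low cells, a log2 ratio of 0.29 (counting interval 0.28 to 0.31). *RPSA* was at -0.0081, -0.11 and -0.026 in Ctrl, 1-day and 3-day and at 0.26 at 7-day. *RPLP0* was at -0.031, 0.0014 and -0.058 and then at 0.22, and *RPL12* at 0.0044, -0.0040 and 0.024 and then at 0.17. These 4 were thus above 0 by more than the interval at 7-day. In the 2 parts of the 7-day cells in barcode order the ratio was 0.26 and 0.33 for *RPS2*, 0.19 and 0.31 for *RPSA*, 0.20 and 0.24 for *RPLP0*, and 0.13 and 0.20 for *RPL12*. Against Ctrl at 7-day, *RPS2* was therefore lower in TOP2A-low cells (log2 ratio -0.70) than in TOP2A-high cells (-0.42), and the values for *RPSA* were -0.44 and -0.17. *RPS20* was above 0 in every library (0.056, 0.14, 0.022 and 0.011), with an interval that includes 0 at 3-day and 7-day, and *RPS21* was at -0.021, 0.0025, 0.048 and 0.039. *RPLP1*, the stalk protein gene with the most UMIs, was at 0.012, -0.041, -0.095 and -0.0031.

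**Figure D4:**
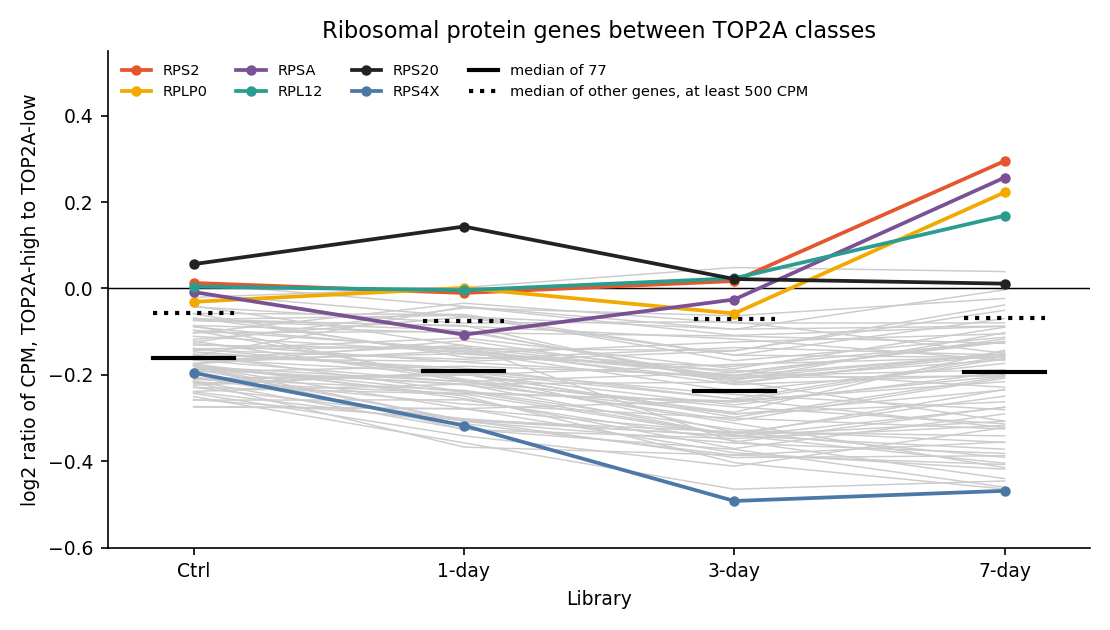
Log2 ratio of CPM in TOP2A-high to TOP2A-low cells (y axis) in each library (x axis), 1 line per ribosomal protein gene, with 6 members colored. Solid bars are the median of the 77 members (-0.16 to -0.24) and dotted bars that of other genes of at least 500 CPM (-0.06 to -0.08). *RPS2*, *RPLP0* and *RPL12* lie near 0 up to 3-day, *RPSA* is at -0.11 at 1-day, and all 4 are at 0.17 to 0.29 at 7-day.

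Ribosomal proteins that fall outside the symbol rule were followed as well. *FAU*, a ubiquitin-like fusion with a small subunit protein, was at 1250.5, 1339, 1107 and 971 CPM (log2 ratio 0.10, -0.18 and -0.36). Among paralogs, *RPL22L1* stood apart, with 264, 242, 474 and 470.0 CPM (-0.12, 0.84 and 0.83). Its partner *RPL22*, a member, was at 790.1, 853, 833 and 743 CPM over the same libraries. The levels of *RPL22L1* in the 2 classes were similar (log2 ratio -0.10 to 0.17). *RPL39L*, a paralog of *RPL39* known for its expression in testis, was the only paralog past the fold limit between the classes. It was higher in TOP2A-high cells by a log2 ratio of 0.95, 1.86, 1.94 and 1.87, whereas *RPL39* was lower in them (-0.07, -0.10, -0.21 and -0.31). In all cells *RPL39L* was at 119, 108, 135 and 147 CPM. *RPL7L1*, whose product acts in ribosome assembly, was at 92.8, 63.7, 84.6 and 98.8 CPM (-0.54, -0.13 and 0.09). *RPL26L1* (-0.08, 0.06 and -0.35) was past the fold limit downward at 7-day. *RPL36AL* (-0.02, -0.13 and -0.12) and *RPS27L* (0.08, 0.21 and -0.19) did not pass it against Ctrl. From 1-day to 3-day *RPL22L1*, *RPL39L* and *RPL7L1* were higher past it, and from 3-day to 7-day *RPL26L1* and *RPS27L* were lower. *RPL10L* and *RPL3L* were at 0.63 CPM or less.

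**Figure D5:**
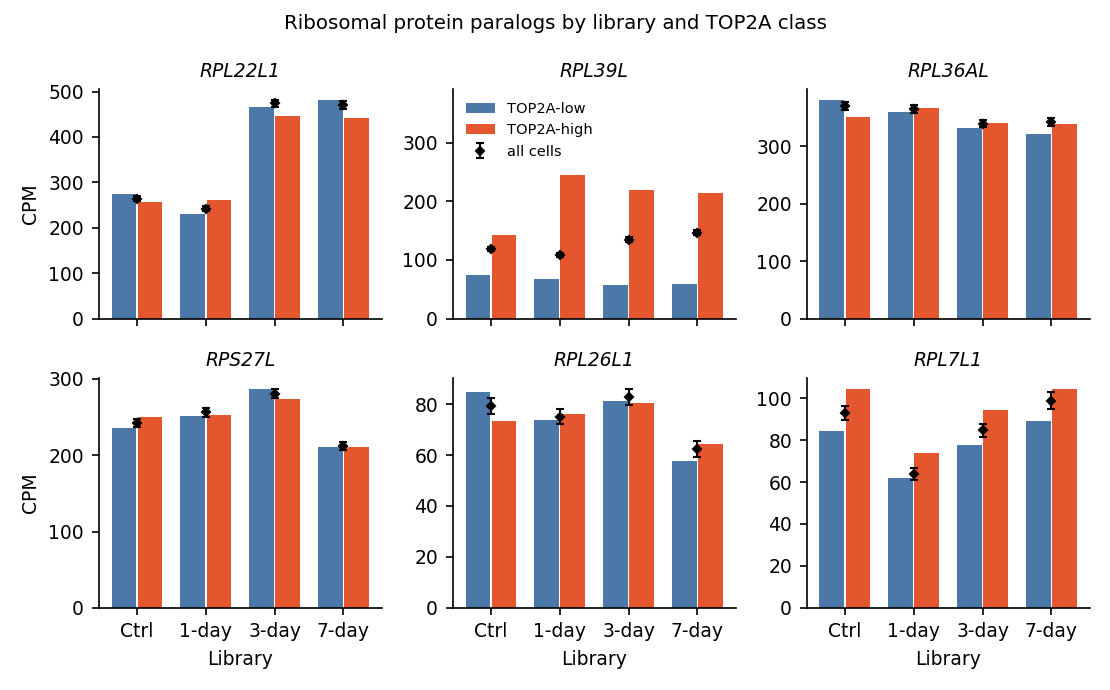
CPM (y axis) of 6 ribosomal protein paralogs in TOP2A-low (blue) and TOP2A-high (red) cells of each library (x axis), with all cells of the library as diamonds and their 95% counting intervals. *RPL22L1* is at 264 CPM in all Ctrl cells and 474 CPM in all 3-day cells, and *RPL39L* is higher in TOP2A-high cells of every library.

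Genes that act with the ribosome were followed as 3 lists. Of 23 translation factors and nascent chain binding proteins, 21 to 22 passed the minimum, and 4 were higher and 1 lower at 1-day, 2 and 1 at 3-day, and 3 and 2 at 7-day. Over all genes the shares higher and lower were those given above, 29.2% and 30.2% at 1-day, 32.5% and 21.5% at 3-day, and 32.9% and 21.4% at 7-day. *TPT1*, whose start window is shown above, was at 1714 CPM in Ctrl and 2998, 2819 and 2819.8 CPM afterwards (0.81, 0.72 and 0.72). *PABPC1*, the poly(A)-binding protein, was lower, at 1763 CPM in Ctrl and 926, 1029 and 763 CPM afterwards (-0.93, -0.78 and -1.21). *EEF1A1*, the elongation factor that brings tRNA to the ribosome, was at 2248, 2688, 2386 and 2653 CPM. At 7-day the elongation factor gene *EEF2* (0.33) and the helicase gene *EIF4A1* (0.39) were also higher, *EIF3M* was lower (-0.32), and *HNRNPA1*, an RNA-binding protein gene, was at -0.31. Between classes, this list had a median of -0.06, -0.16, -0.22 and -0.23 in TOP2A-high against TOP2A-low cells. Of the 21, 21, 22 and 22 genes that passed, 0, 5, 5 and 9 were lower, where 4.92%, 11.3%, 11.0% and 14.7% of all genes were.

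Of the ribosome biogenesis factors, which process rRNA and assemble the subunits in the nucleolus, most that passed the minimum were lower at 1-day. Of 40 on the list, 16 had at least 50 CPM in Ctrl or 1-day. Of these, 14 were lower and none higher, with a median log2 ratio of -0.76, where 30.2% of all genes were lower. A gene that reached the minimum in Ctrl alone could only lie below Ctrl, and such genes were not counted apart. The same limit holds for the shares over all genes and for the other lists and comparisons. At 3-day and 7-day 5 of 16 were lower and 1 higher (medians -0.31 and -0.26), where 21.5% and 21.4% of all genes were lower. *NOP56*, of the box C/D particle, was at 256, 93.7, 157 and 195 CPM. Nucleolin (*NCL*) was at 451, 265, 349 and 329.6 CPM, and *NOP10* was higher at 3-day (0.35). At 7-day *DKC1* (-0.47) and *GNL3* (-0.43) were lower, *UBTF*, an activator of RNA polymerase I, was higher (0.35), and *BOP1* was at 0.21. Between classes these factors had medians of 0.22, 0.41, 0.37 and 0.55, above 0 where those of the members were below it. Of the 17, 12, 17 and 16 factors that passed, 4, 7, 11 and 14 were higher in TOP2A-high cells and none lower, where 16.2%, 24.2%, 24.4% and 29.0% of all genes were higher. TOP2A-high cells were 40.2% of Ctrl and 9.61% of 1-day. Ratios to Ctrl within classes are not given for these factors, so their 1-day values are not separated from class makeup. Of 15 mTORC1 and translation control genes, 7 passed against Ctrl, and 1 was higher and 4 lower at 1-day, 1 and 3 at 3-day, and 1 and 2 at 7-day (medians -0.57, -0.27 and -0.16). Over all genes 30.2%, 21.5% and 21.4% were lower at these time points. *EIF4EBP1*, the repressor that binds eIF4E, was at 164 CPM in Ctrl and 262, 315 and 318 CPM afterwards, and *LARP1* at 102, 58.5, 75.3 and 90.7 CPM. *RHEB*, the activator of mTORC1, was at 252, 151, 209 and 203 CPM and was higher in TOP2A-high cells (log2 ratio 0.51 to 1.07). *DDIT4*, an inhibitor of the pathway, was at 85.7, 57.4, 34.9 and 39.6 CPM. *SESN2*, another inhibitor, did not pass the minimum, with 3.50 CPM in Ctrl and 16.7, 17.9 and 23.0 CPM afterwards. *AKT1S1* was at -0.36 at 7-day, and *EIF4E* (-0.066) and *EIF4G1* (0.22) did not pass the fold limit against Ctrl there. Between classes *EIF4E*, like *RHEB*, was higher past the fold limit in TOP2A-high cells of every library. *EIF4G1* was higher past it from 1-day to 3-day.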

How the data were processed

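scRNA-seq of OVCA420 cells was analysed from 4 libraries, grouped by the treatment given in the labels. The authors deposited raw UMI counts for each gene in each cell, made with Cell Ranger 2.0.1 on GRCh38 according to the submitters' processing notes. Of 10710 listed barcodes, the first 3170 in barcode order were used here (941 Ctrl, 945 1-day, 712 3-day and 572 7-day), so sums are not full library depths. Cells with more than 200 genes and at most 20% mitochondrial UMIs were retained (3144). Scrublet (scanpy 1.11.5) marked 40 cells (1.27%), which were kept.

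UMIs were summed over cells and scaled to CPM. Intervals are exact (Poisson, binomial, or conditional for ratios), at 95%, and cover counting error only. Called genes had 50 CPM or more in either group and a log2 ratio of at least 0.3219 in size (1.25-fold). Named members were the 5 with the most UMIs in Ctrl, the 8 highest and 8 lowest ratios at 7-day, the 5 highest and 5 lowest at 1-day and at 3-day and between TOP2A classes in Ctrl, every member past the fold, *RPL5*, *RPL11*, the stalk and the X-linked members. Paralogs and *FAU* were named as well. Y-linked paralogs and a few other genes that the rule names are not reported here. Of each other list the rule names the 3 highest and 3 lowest 7-day ratios, and the text gives those and others, chosen after their values were seen. Start windows came from RefSeq (GRCh38.p14), where 62 of 77 members matched by symbol. The members and lists were chosen with earlier results of these data known. The ratio, interval and fold limit steps were tested on simulated Poisson counts. These hold counting error only, so spread between cells or libraries was not covered, and the other steps were not simulated. Python 3.11.15, numpy 2.4.6 and scipy 1.17.1 were used.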

Additional observations from a re-analysis of the deposited data

Results flagged for a closer look

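Several genes lay on one side of Ctrl in one treated library and on the other side in another. Each time point has 1 library, and these differences were not tested. Among the members, *RPS4X* stood at 0.34 on the log2 scale at 1-day, -0.081 at 3-day and -0.060 at 7-day. *RPL38* was at -0.094, 0.34 and 0.32, and *RPL36* at -0.39 at 1-day and 0.032 at 7-day. Under alternative settings *RPS4X* reached 0.016 at 3-day and 0.031 at 7-day, and *RPL36* reached -0.011 at 7-day. The side of Ctrl was therefore not stable for these values, whereas *RPL38* kept its sign at each time point. Of the ribosomal proteins outside the symbol rule, *FAU* was at 0.098 at 1-day and -0.36 at 7-day, *RPL22L1* at -0.12, 0.84 and 0.83 at 1, 3 and 7 days, and *RPL7L1* at -0.54 at 1-day and 0.091 at 7-day.

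Of the translation factors, *EEF2* was at -0.18 at 1-day and 0.33 at 7-day, and *EIF4A1* at -0.23 and 0.39. Of the ribosome biogenesis factors, *BOP1* was at -0.36, 0.11 and 0.21 at 1, 3 and 7 days, *WDR43* at -0.75 at 1-day and 0.095 at 7-day, and *EBNA1BP2* at -0.48 at 1-day and 0.15 at 3-day. Between TOP2A-high and TOP2A-low cells, *GNL3* had a log2 ratio of -0.13 in Ctrl and 0.35 at 7-day, and *EBNA1BP2* of -0.22 and 0.50. These differences between libraries were not tested either.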

How the results depend on the processing

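With 1 library per condition, a difference between conditions and a difference between libraries cannot be told apart, and intervals hold counting error only. No paired analysis was possible because only 1 library stands for each time point, and for the same reason no replicate could be left out. The cells used are the first part of each barcode list. The share in the treated libraries was below Ctrl under every alternative run, and the share in TOP2A-high cells was below that in TOP2A-low cells under every alternative run. The median over members at 1-day and 3-day lay so close to 0 that its sign differed between settings. Counts depended on the fold and, between classes and against Ctrl at 7-day, on the cells chosen. The cause of these differences was not tested. Leaving out shared barcodes, *RPS2* or the group of 4 genes, and using TOP2A-high cells alone, were chosen after seeing the data. For the 37 named members, 2294 alternative values were computed, of which 1264 lay within the counting interval of the reported value, 1030 did not, and 0 turned a called direction.

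Values that left the reported interval, or counts that differed by more than 1.5 times, were as follows. A mitochondrial limit of 10% gave a share of 24.97% (Ctrl), 23.80% (1-day), 23.20% (3-day) and 23.56% (7-day), a member median log2 ratio to Ctrl of -0.021 (1-day), -0.017 (3-day) and -0.058 (7-day), a class log2 ratio of -0.12 (Ctrl), -0.17 (1-day), -0.20 (3-day) and -0.16 (7-day) and 8 members (1-day) past the fold between classes. The first part of the cells in barcode order gave a share of 24.82% (Ctrl), 23.47% (1-day), 23.02% (3-day) and 23.69% (7-day), a member median log2 ratio to Ctrl of -0.017 (1-day) and -0.024 (3-day), a class log2 ratio of -0.19 (1-day), -0.20 (3-day) and -0.14 (7-day) and 15 members (1-day) and 11 member (7-day) past the fold between classes. The second part gave a share of 24.55% (Ctrl), 23.75% (1-day), 23.17% (3-day) and 23.23% (7-day), a member median log2 ratio to Ctrl of 0.0059 (1-day), 0.0039 (3-day) and -0.041 (7-day), a class log2 ratio of -0.14 (1-day), -0.21 (3-day) and -0.17 (7-day) and 3 members (1-day) past the fold between classes. TOP2A-low cells alone gave a share of 26.02% (Ctrl), 24.10% (1-day), 24.36% (3-day) and 24.64% (7-day), 14 members (7-day) past the fold against Ctrl and a member median log2 ratio to Ctrl of -0.082 (1-day) and -0.023 (7-day). Restriction to cells of 20000 to 60000 UMIs gave a share of 24.75% (Ctrl) and 23.09% (7-day), a class log2 ratio of -0.13 (Ctrl), -0.29 (3-day) and -0.19 (7-day) and 44 members (3-day) and 27 members (7-day) past the fold between classes. Leaving out shared barcodes gave a share of 24.65% (Ctrl), 23.13% (3-day) and 23.44% (7-day) and a member median log2 ratio to Ctrl of -0.010 (1-day), -0.0017 (3-day) and -0.035 (7-day). TOP2A-high cells alone gave a share of 24.03% (Ctrl), 21.70% (1-day), 21.12% (3-day) and 22.19% (7-day), 5 members (7-day) past the fold against Ctrl and a member median log2 ratio to Ctrl of -0.091 (1-day), -0.13 (3-day) and -0.11 (7-day). Leaving mitochondrially encoded genes out of the total gave a share of 26.94% (Ctrl), 25.56% (1-day), 24.65% (3-day) and 25.06% (7-day), a member median log2 ratio to Ctrl of -0.026 (1-day), -0.040 (3-day) and -0.069 (7-day) and a class log2 ratio of -0.16 (1-day), -0.20 (3-day) and -0.14 (7-day). The mean over cells gave a share of 24.50% (Ctrl), 23.31% (1-day), 22.96% (3-day) and 23.21% (7-day). Leaving out *RPS2* gave a share of 23.14% (Ctrl), 22.45% (1-day), 22.14% (3-day) and 22.40% (7-day). Leaving out doublets gave a share of 23.39% (7-day), a member median log2 ratio to Ctrl of -0.0060 (3-day) and a class log2 ratio of -0.16 (7-day). Median-of-ratios scaling gave a member median log2 ratio to Ctrl of 0.00084 (1-day), -0.069 (3-day) and -0.069 (7-day) and medians to Ctrl of 0.034 for translation factors at 3-day, -0.37 for ribosome biogenesis at 3-day and -0.33 for mTORC1 and translation control at 3-day. A fold of 1.1 gave 38 members (1-day), 37 members (3-day) and 34 members (7-day) past the fold against Ctrl. A fold of 1.5 gave 0 members (1-day), 1 member (3-day) and 0 members (7-day) past the fold against Ctrl. Thinning to 18000 UMIs gave a class log2 ratio of -0.12 (Ctrl), -0.13 (1-day), -0.23 (3-day) and -0.14 (7-day). Leaving out *RPS2*, *RPSA*, *RPLP0* and *RPL12* gave a class log2 ratio of -0.13 (Ctrl), -0.17 (1-day), -0.23 (3-day) and -0.19 (7-day). TOP2A-high from 3 UMIs per 10000 gave a class log2 ratio of -0.18 (3-day) and -0.14 (7-day) and 14 members (3-day) past the fold between classes.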
